A study of Homo sapiens with 12 samples.

Results

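Transcripts of 7 annexins (ANXA1, ANXA2, ANXA3, ANXA4, ANXA6, ANXA7 and ANXA11), of the ferlin MYOF and of the annexin partners S100A10 and S100A11 were followed through a transfection experiment in HEK-293T, a line derived from embryonic human kidney. These 10 genes were taken by name from a table of 60645 gene names, and all 10 passed the filter on low counts that left 20377 genes for testing. The line carried a knockout of ARID1A, the large subunit that helps the BAF form of the SWI/SNF remodeller to bind chromatin, so all 6 groups carry this knockout. These cells received an empty vector (no ARID1A), full-length ARID1A (WT) or ARID1A without IDR1b, a stretch inside one of its intrinsically disordered regions (ΔIDR1b). On top of this they were transfected with EWS-FLI1, the oncogenic fusion of Ewing sarcoma, in which the start of EWSR1 is joined to the ETS domain of FLI1, or a further empty vector. The 6 groups were thus no ARID1A, WT and ΔIDR1b, each with empty vector and each with EWS-FLI1, at 2 polyA RNA libraries a group. The labels state 2 µg of EWS-FLI1 plasmid and 48 h of growth. They do not say whether the knockout is 1 clone or whether the repeats were separate cultures. The p-values below set differences against the spread between these libraries, and may not hold for other cultures or clones. The list holds part of the annexin family, without ANXA5, and S100 partners. It was drawn up with earlier results of these data known. Counts of called genes below are thus not those of a set chosen apart from the data. MYOF was chosen by measured values, its lower level with EWS-FLI1 averaged over the 3 ARID1A states (log2 -0.69). Its values in that contrast are therefore described without a test.

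Annexins are calcium-dependent proteins that bind acidic phospholipids on the inner face of membranes. When the plasma membrane tears and calcium enters, annexins gather at the wound, bend and cross-link membrane and help to form a repair cap. S100A10 and S100A11 are small EF-hand proteins that bind the N-terminal tails of annexins, S100A10 that of ANXA2 and S100A11 that of ANXA1. MYOF (myoferlin) is a membrane-anchored protein with several C2 domains, a relative of the muscle repair protein dysferlin, and takes part in membrane fusion, repair and receptor traffic.

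The start-site regions of the 4 genes whose group means spanned the widest range are printed here because EWS-FLI1 binds DNA through the GGAA core of ETS factors. Each run covers the 250 bases before the gene's start, taken from RefSeq on GRCh38.p14, 5′ to 3′ on the gene's strand, with GGAA or its complement TTCC in capitals. The RefSeq starts of ANXA1, MYOF and S100A10 are those of the counted genes. That of ANXA3 lies 23 bases inside the counted gene. The bases just after the start were found in a transcript of the gene in an earlier GENCODE release for ANXA1, ANXA3 and S100A10. For MYOF they were not.
ANXA1, chr9:73151615-73151864, plus strand: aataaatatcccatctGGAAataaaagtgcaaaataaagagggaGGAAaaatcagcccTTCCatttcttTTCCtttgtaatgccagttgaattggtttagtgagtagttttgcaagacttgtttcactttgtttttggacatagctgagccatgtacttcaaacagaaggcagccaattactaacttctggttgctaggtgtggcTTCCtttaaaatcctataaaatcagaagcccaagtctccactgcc
ANXA3, chr4:78551520-78551769, plus strand: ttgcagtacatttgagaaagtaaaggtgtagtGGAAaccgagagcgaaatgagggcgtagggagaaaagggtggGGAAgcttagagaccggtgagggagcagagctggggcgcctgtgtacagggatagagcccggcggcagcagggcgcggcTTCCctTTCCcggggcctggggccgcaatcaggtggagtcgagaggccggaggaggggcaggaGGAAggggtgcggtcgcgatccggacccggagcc
MYOF, chr10:93482335-93482584, minus strand: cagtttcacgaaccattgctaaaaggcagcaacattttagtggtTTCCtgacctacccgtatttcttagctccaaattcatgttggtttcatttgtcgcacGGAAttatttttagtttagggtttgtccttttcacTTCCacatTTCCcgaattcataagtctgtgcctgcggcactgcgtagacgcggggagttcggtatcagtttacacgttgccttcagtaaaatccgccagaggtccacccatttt
S100A10, chr1:151993860-151994109, minus strand: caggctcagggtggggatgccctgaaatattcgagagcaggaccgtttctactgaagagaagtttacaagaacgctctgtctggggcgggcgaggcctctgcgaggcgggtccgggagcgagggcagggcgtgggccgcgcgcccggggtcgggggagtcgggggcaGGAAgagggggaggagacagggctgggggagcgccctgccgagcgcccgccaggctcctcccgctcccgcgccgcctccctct
On both strands together, GGAA occurred 5 times before ANXA1, 5 times before ANXA3, 4 times before MYOF and 1 time before S100A10. Of 35116 RefSeq windows of this length, 92.7% held GGAA, with a median of 3 matches. None of the 4 windows held GGAAGGAA, the shortest tandem repeat of the core, which 3.06% of all windows held. Likewise none held TGANTCA, the core bound by AP-1 factors (6.57% of windows), or GGAATG, a core bound by TEAD factors (11.9% of windows). The windows differed in base composition. That of ANXA1 was 38.4% GC with 0 CG dinucleotides, that of MYOF 44.4% GC with 12, that of ANXA3 64% GC with 18 and that of S100A10 71.2% GC with 24, against medians of 58% GC and 11 CG dinucleotides over all windows.

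The library totals ran from 11702251 to 14445379 counts. Levels are given as CPM, counts relative to an equal library total, on library sizes scaled by edgeR's TMM method. ARID1A stood at 147 to 165 CPM without the construct, 1843 to 2291 CPM with WT and 2608 to 2878 CPM with ΔIDR1b. FLI1 had 0 to 2 counts in each library with empty vector. With EWS-FLI1 it stood at 1688 and 1830 CPM in no ARID1A, 3462 and 3675 CPM in WT, and 1888 and 1906 CPM in ΔIDR1b. WT and ΔIDR1b thus differed in ARID1A level and, with EWS-FLI1, in FLI1 level. The part of these levels in differences between the states was not tested. Of 6 HEK-293T markers 5 exceeded 1 CPM in every library, and the sixth, NEFM, had 0 or 1 counts. Of 13 markers of blood, liver, endothelium, muscle and myeloid cells, MYOD1 exceeded 1 CPM in every library (1.26 to 3.68 CPM), S100A8 was at 0 in every library, and the 13 together summed to between 3.79 and 8.27 CPM.

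Among the 10 genes, ANXA1 was called higher with either form of ARID1A than with none, whichever vector was present. S100A10 was called lower than in no ARID1A with ΔIDR1b under either vector, but with WT only under EWS-FLI1. ANXA3 was called higher with both forms under EWS-FLI1 and with neither under empty vector. ANXA1, ANXA2, ANXA6 and S100A10 were called lower with ΔIDR1b than with WT. Calls are those of edgeR's quasi-likelihood test with an adjusted p under 0.05 (Benjamini-Hochberg over all 20377 genes). Between WT and no ARID1A, 2 of the 10 were called with empty vector (ANXA1 and MYOF higher), where 11.7% of all genes were called, and 3 of 10 with EWS-FLI1 (ANXA1 and ANXA3 higher, S100A10 lower), where 18.1% were called. Between ΔIDR1b and no ARID1A, 3 of 10 were called with empty vector (ANXA1 and MYOF higher, S100A10 lower), against 33.3% of all genes. With EWS-FLI1 it was 4 of 10 (ANXA1 and ANXA3 higher, ANXA2 and S100A10 lower), against 35.9%. Between ΔIDR1b and WT the same 4 genes, ANXA1, ANXA2, ANXA6 and S100A10, were called lower with either vector. The share of all genes called was 24.5% there with empty vector (13.4% lower) and 18.6% with EWS-FLI1 (10.1% lower). The median log2 difference between ΔIDR1b and WT was -0.17 for the 10 genes with empty vector and -0.12 with EWS-FLI1, beside 0.01 over all genes tested in each.

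**Figure D1:**
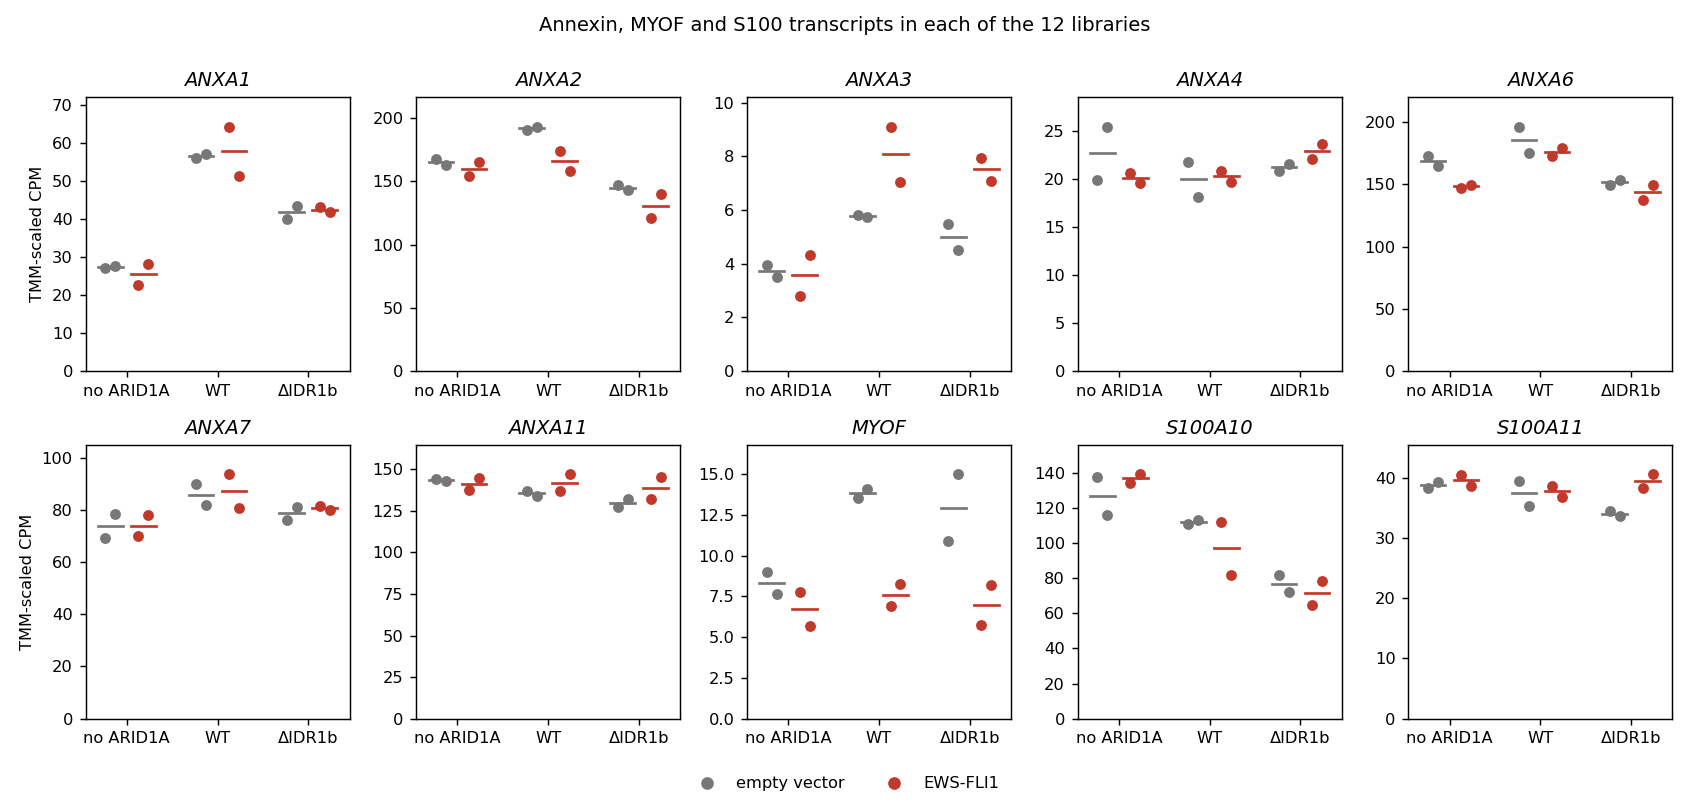
TMM-scaled CPM of each gene (vertical axes, from 0, one scale per gene) in the 12 libraries, by ARID1A state, with empty vector in grey and EWS-FLI1 in red. Points are libraries and bars the mean of 2. ANXA1 steps from 22.8 to 28.2 CPM in no ARID1A to 40.1 to 43.5 CPM in ΔIDR1b and 51.4 to 64.4 CPM in WT, and S100A10 runs the other way between no ARID1A and ΔIDR1b.

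ANXA1, which binds phospholipid in a calcium-dependent way and is also known as an anti-inflammatory mediator, spans 9:73151865-73170393 on the plus strand of GRCh38. In no ARID1A it stood at 27.1 and 27.6 CPM with empty vector and at 22.8 and 28.2 CPM with EWS-FLI1. In ΔIDR1b it stood at 40.1 and 43.5 CPM with empty vector and 43.1 and 41.9 CPM with EWS-FLI1. In WT it stood at 56 and 57.3 CPM with empty vector and 64.4 and 51.4 CPM with EWS-FLI1. The 3 states did not overlap: the 4 libraries of no ARID1A were the lowest, the 4 of ΔIDR1b lay between and the 4 of WT were the highest, whichever vector was present. Against no ARID1A, WT was 2.07-fold higher with empty vector (log2 1.05, SE 0.136, adjusted p = 1.97e-06) and 2.27-fold higher with EWS-FLI1 (log2 1.19, SE 0.138, adjusted p = 1.42e-07). ΔIDR1b was 1.53-fold higher than no ARID1A with empty vector (log2 0.61, SE 0.137, adjusted p = 0.000705) and 1.67-fold higher with EWS-FLI1 (log2 0.74, SE 0.139, adjusted p = 7.79e-05). These 4 calls held in every alternative analysis run. ΔIDR1b was below WT by a log2 difference of -0.44 (SE 0.132, adjusted p = 0.0141) with empty vector and -0.45 (SE 0.132, adjusted p = 0.0163) with EWS-FLI1. The first of these was lost without replicate 1 (adjusted p = 0.0643) or 2 (0.0823) of WT with empty vector or replicate 1 of ΔIDR1b with empty vector (0.139). The second was lost without replicate 1 of WT with EWS-FLI1 (0.204), without replicate 1 (0.0769) or 2 (0.0901) of ΔIDR1b with EWS-FLI1, and when only the libraries compared were fitted (0.0904). Over both vectors together, a comparison added after the data had been seen, the difference between ΔIDR1b and WT was -0.44 (adjusted p = 0.000324), and no single library ended that call (highest adjusted p = 0.00395).

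S100A10, the p11 subunit that joins ANXA2 in a membrane-bound complex, spans 1:151982915-151993859 on the minus strand, and S100A11 lies on the same chromosome at 1:152032506-152047907. S100A10 ran in the opposite order to ANXA1 between no ARID1A and the other states. In no ARID1A it stood at 137.8 and 116.4 CPM with empty vector and 134.5 and 139.5 CPM with EWS-FLI1. In WT it stood at 110.9 and 113 CPM with empty vector and 112.3 and 81.9 CPM with EWS-FLI1. In ΔIDR1b it stood at 81.8 and 72.1 CPM with empty vector and 64.9 and 78.5 CPM with EWS-FLI1. All 4 libraries of no ARID1A lay above all 4 of WT. Those of ΔIDR1b lay below those of WT within each vector, with 1 WT library, replicate 2 with EWS-FLI1, only just above the highest ΔIDR1b library. ΔIDR1b was 1.65-fold below no ARID1A with empty vector (log2 -0.72, SE 0.126, adjusted p = 3.03e-05) and 1.91-fold below with EWS-FLI1 (log2 -0.93, SE 0.127, adjusted p = 4.9e-07), and both calls held in every alternative run. WT was below no ARID1A with EWS-FLI1 (log2 -0.50, SE 0.125, adjusted p = 0.00475), but not without replicate 2 of no ARID1A with EWS-FLI1 (0.0579) or replicate 2 of WT with EWS-FLI1 (0.0944). With empty vector the difference was -0.18 and was not called. ΔIDR1b was below WT by -0.54 with empty vector (SE 0.126, adjusted p = 0.00177) and -0.44 with EWS-FLI1 (SE 0.127, adjusted p = 0.0141). The first was lost without replicate 2 of ΔIDR1b with empty vector (0.0544). The second was lost without replicate 1 of WT (0.313) or of ΔIDR1b (0.221) with EWS-FLI1 and in the fit of only the libraries compared (0.11). Over both vectors the differences were -0.34 for WT against no ARID1A (adjusted p = 0.00352), -0.83 for ΔIDR1b against no ARID1A (adjusted p = 2.06e-09) and -0.49 for ΔIDR1b against WT (adjusted p = 5.26e-05), and no alternative ended these 3 calls.

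**Figure D2:**
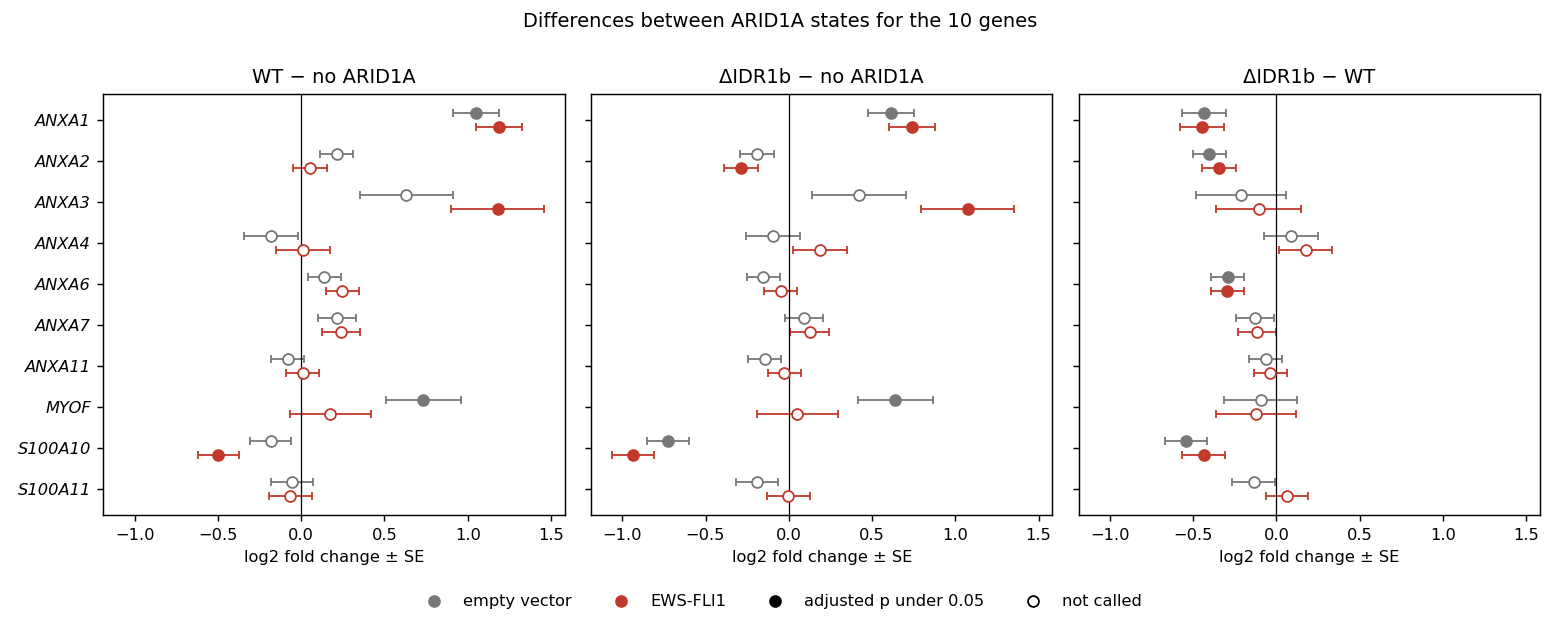
Log2 fold change (horizontal axis) between ARID1A states for each gene, with empty vector in grey and EWS-FLI1 in red. Points are edgeR estimates, bars 1 SE either side, and filled points have an adjusted p under 0.05. In the comparison of ΔIDR1b with WT the filled points are ANXA1, ANXA2, ANXA6 and S100A10, between -0.54 and -0.29.

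ANXA2, which bundles actin at membranes and is the partner of S100A10, spans 15:60347134-60402883 on the minus strand. With empty vector it stood at 167.9 and 163.2 CPM in no ARID1A, 190.2 and 193.3 CPM in WT and 147.1 and 143.2 CPM in ΔIDR1b. With EWS-FLI1 it stood at 153.9 and 165.3 CPM in no ARID1A, 173.7 and 157.9 CPM in WT and 121 and 140.2 CPM in ΔIDR1b. The libraries of ΔIDR1b were the lowest with either vector, while those of WT and no ARID1A overlapped with EWS-FLI1. ΔIDR1b was below WT by a log2 difference of -0.40 with empty vector (SE 0.101, adjusted p = 0.00352) and -0.34 with EWS-FLI1 (SE 0.102, adjusted p = 0.0161). It was below no ARID1A with EWS-FLI1 (-0.29, SE 0.102, adjusted p = 0.0254), and the value with empty vector, -0.19, was called only in the fit of the libraries compared (adjusted p = 0.0329). The call against WT with empty vector was lost without replicate 2 of ΔIDR1b (0.0508). That with EWS-FLI1 was lost without replicate 1 of WT (0.0702) or of ΔIDR1b (0.243) and in the fit of only the libraries compared (0.133). The call against no ARID1A was lost without replicate 1 (0.058) or 2 (0.214) of no ARID1A or replicate 1 of ΔIDR1b (0.307), all with EWS-FLI1. Over both vectors ΔIDR1b was below WT by -0.37 (adjusted p = 0.000102), which no alternative ended. Fragments that map to several places were left uncounted, so reads shared by ANXA2 and its processed pseudogenes are missing from these values. ANXA2P2 itself held 0.682 to 2.38 CPM.

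Within a library, the count of S100A10 could be set against that of ANXA2 without any scaling. In no ARID1A there were 0.821 and 0.714 S100A10 fragments per ANXA2 fragment with empty vector and 0.874 and 0.844 with EWS-FLI1. In WT there were 0.583 and 0.585 with empty vector and 0.646 and 0.519 with EWS-FLI1, and in ΔIDR1b 0.556 and 0.504 with empty vector and 0.537 and 0.56 with EWS-FLI1. The ratio was higher in each of the 4 libraries without ARID1A than in any of the other 8, and the ranges of WT and ΔIDR1b overlapped. Such a ratio shows that the 2 transcripts changed unequally and not which of them changed. ANXA1 was set against ANXA2 in the same way. Its fragments per ANXA2 fragment ran from 0.148 to 0.17 in no ARID1A, 0.2945 to 0.371 in WT and 0.273 to 0.356 in ΔIDR1b. The ranges of WT and ΔIDR1b thus overlapped for this ratio too.

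**Figure D3:**
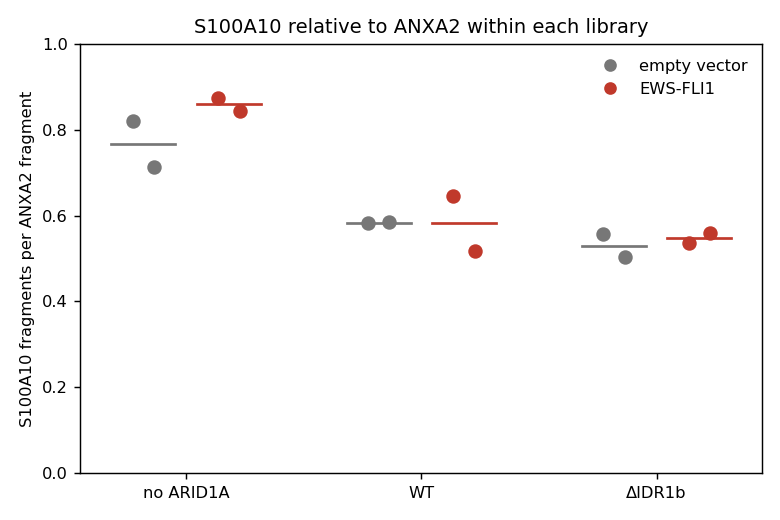
S100A10 fragments per ANXA2 fragment (vertical axis, from 0) in each of the 12 libraries by ARID1A state, with empty vector in grey and EWS-FLI1 in red. Points are libraries and bars the mean of 2. The libraries of no ARID1A lie between 0.714 and 0.874 and the others between 0.504 and 0.646.

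ANXA3, an annexin of lower abundance here, spans 4:78551747-78610451 on the plus strand and held 33 to 121 counts per library. In no ARID1A it stood at 3.94 and 3.52 CPM with empty vector and 2.81 and 4.32 CPM with EWS-FLI1. In WT it stood at 5.8 and 5.75 CPM with empty vector and 9.11 and 7.05 CPM with EWS-FLI1, and in ΔIDR1b at 5.48 and 4.5 CPM with empty vector and 7.93 and 7.09 CPM with EWS-FLI1. No library of no ARID1A reached the lowest library of WT or ΔIDR1b, and the latter states overlapped with EWS-FLI1. With EWS-FLI1, WT was 2.26-fold above no ARID1A (log2 1.18, SE 0.278, adjusted p = 0.0027) and ΔIDR1b 2.1-fold above (log2 1.07, SE 0.278, adjusted p = 0.00268). Both calls were lost without replicate 1 of no ARID1A with EWS-FLI1, at adjusted p = 0.0944 and 0.087. With empty vector the differences were 0.63 (adjusted p = 0.141) and 0.42 (0.263). Over both vectors they were 0.90 (adjusted p = 0.000623) and 0.75 (adjusted p = 0.00204), and held in every alternative run. The difference between ΔIDR1b and WT was -0.21 with empty vector (SE 0.269) and -0.11 with EWS-FLI1 (SE 0.254), neither called.

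MYOF, the ferlin, spans 10:93306429-93482334 on the minus strand and held 66 to 210 counts per library. With empty vector it stood at 9 and 7.63 CPM in no ARID1A, 13.5 and 14.1 CPM in WT and 10.9 and 15 CPM in ΔIDR1b. With EWS-FLI1 it stood at 7.76 and 5.7 CPM in no ARID1A, 6.93 and 8.26 CPM in WT and 5.73 and 8.2 CPM in ΔIDR1b. WT and ΔIDR1b with empty vector were the 2 groups with high values, and the other 4 groups stood at 9 CPM or less with overlapping libraries. With empty vector, WT was 1.66-fold above no ARID1A (log2 0.73, SE 0.225, adjusted p = 0.0297) and ΔIDR1b 1.56-fold above (log2 0.64, SE 0.226, adjusted p = 0.0273). The call for WT was lost without any 1 of the 4 libraries compared (adjusted p = 0.0719 and 0.234 without replicates 1 and 2 of no ARID1A, 0.12 and 0.119 without replicates 1 and 2 of WT), with upper-quartile scaling (0.0502) and in DESeq2 (0.0516). That for ΔIDR1b was lost without replicate 1 (0.0518) or 2 (0.192) of no ARID1A, without replicate 2 of ΔIDR1b (0.351) and in DESeq2 (0.0512). With EWS-FLI1 the same differences were 0.17 (SE 0.243) and 0.05 (SE 0.244), and neither was called.

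With EWS-FLI1 the MYOF level was lower than with empty vector by a log2 difference of -0.30 without ARID1A (SE 0.241), -0.86 with WT (SE 0.228) and -0.89 with ΔIDR1b (SE 0.228), and by -0.69 on average over the 3 states (SE 0.134). The libraries of the 2 vectors overlapped in no ARID1A and did not overlap in WT and ΔIDR1b. MYOF was chosen on this difference, so the separation is no test of it. The share of all genes that separate in this way was not counted. ANXA2 (lower with EWS-FLI1) and ANXA3 (higher) also did not overlap between vectors in WT and in ΔIDR1b. Nor did ANXA6 (lower) in no ARID1A and in ΔIDR1b, or ANXA4 and S100A11 (both higher) in ΔIDR1b. Without the share over all genes, no result is drawn from these separations. Whether the difference itself varied with ARID1A was tested by interaction terms. These were -0.56 (SE 0.332) between WT and no ARID1A, -0.59 (SE 0.332) between ΔIDR1b and no ARID1A and -0.03 (SE 0.322) between ΔIDR1b and WT, each with an adjusted p of 1. The FLI1 level with EWS-FLI1 was higher in WT (3568 CPM on average) than in ΔIDR1b (1897 CPM) or no ARID1A (1759 CPM), and its part in these values was not tested.

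None of the other 9 genes was called for a change with EWS-FLI1. Over the 9 other genes and 3 states, the 27 log2 differences ran from -0.21 to 0.59, and edgeR called 0 of them, with 2 at an unadjusted p under 0.05 and the lowest adjusted p at 0.751. DESeq2 also called 0. By this rule EWS-FLI1 changed 0.0442% of all genes without ARID1A, 0.221% with WT and 0.172% with ΔIDR1b, and the counts rose from 9, 45 and 35 genes to 15, 260 and 177 when the repeat number was a block within each vector, still with 0 of the 9. The 2 values at an unadjusted p under 0.05 were ANXA2 in WT, at -0.21 (SE 0.101), and ANXA3 in ΔIDR1b, at 0.59 (SE 0.263). ANXA3 stood at 0.48 in WT (SE 0.26) and -0.06 in no ARID1A (SE 0.296). S100A10 in WT, at -0.21 (SE 0.125), was called without replicate 1 of WT with EWS-FLI1 (-0.45, adjusted p = 0.0484). Averaged over the states, where 0.466% of all genes were called, the lowest adjusted p among the 9 was 0.512, with 2 at an unadjusted p under 0.05, ANXA2 at -0.14 (SE 0.0586) and ANXA3 at 0.34 (SE 0.158). All 30 interaction values of the 10 genes missed the threshold, with 0 at an unadjusted p under 0.05, 0 called by DESeq2 and the lowest unadjusted p at 0.0846. The share of all genes called was 0.0245% for WT against no ARID1A, 0.0196% for ΔIDR1b against no ARID1A and 0% for ΔIDR1b against WT.

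**Figure D4:**
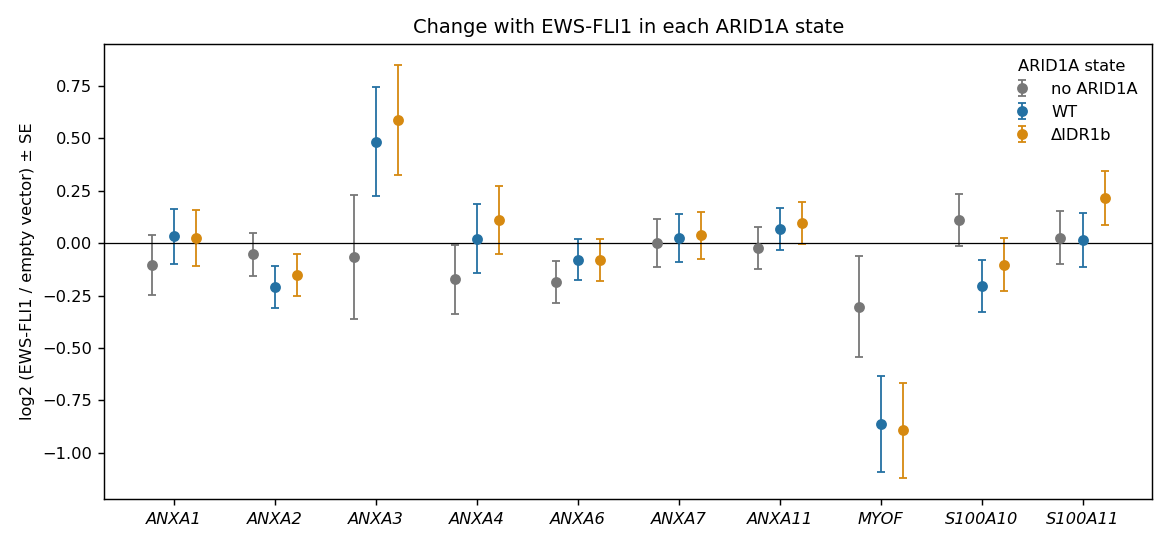
Log2 ratio of EWS-FLI1 to empty vector (vertical axis) for each gene without ARID1A (grey), with WT (blue) and with ΔIDR1b (orange). Points are edgeR estimates and bars 1 SE either side. MYOF lies at -0.30, -0.86 and -0.89, and the other 9 genes lie between -0.21 and 0.59.

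ANXA6, an annexin with a doubled core that tethers membranes and takes part in cholesterol traffic and wound caps, spans 5:151100706-151157815 on the minus strand. With empty vector it stood at 172.9 and 164.8 CPM in no ARID1A, 196.4 and 175.3 CPM in WT and 149.6 and 153.8 CPM in ΔIDR1b. With EWS-FLI1 it stood at 147.4 and 149.3 CPM in no ARID1A, 172.7 and 179.4 CPM in WT and 137.7 and 149.3 CPM in ΔIDR1b. The libraries of WT lay above those of ΔIDR1b with either vector, by a log2 difference of ΔIDR1b to WT of -0.29 in each (adjusted p = 0.028 with empty vector and 0.0348 with EWS-FLI1). The first call was lost without replicate 1 of WT with empty vector (0.268), replicate 1 (0.168) or 2 (0.109) of ΔIDR1b with empty vector and with upper-quartile scaling (0.0905). The second was lost without any single library other than the 2 of WT with empty vector and replicate 1 of WT with EWS-FLI1 (adjusted p from 0.0512 to 0.254), with upper-quartile scaling (0.0686) and in the fit of only the libraries compared (0.179). Over both vectors the difference was -0.29 (adjusted p = 0.00118) and held in every alternative run. Against no ARID1A with EWS-FLI1, WT was 0.25 higher on the log2 scale (adjusted p = 0.0821), and this value was called when the repeat number was a block within each vector (adjusted p = 0.0326).

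ANXA7, an annexin known from membrane fusion and secretion, stood between 69.1 and 93.8 CPM over the 12 libraries. Its 4 libraries of WT, at 80.9 CPM or more, lay above the 4 of no ARID1A, at 78.6 CPM or less. In that comparison ANXA7 was called over both vectors (log2 0.23, adjusted p = 0.0309) and with neither vector alone, except with EWS-FLI1 when replicate 2 of WT was left out (log2 0.34, adjusted p = 0.0375). That call was lost without replicate 1 of no ARID1A with empty vector (0.164) or EWS-FLI1 (0.159), without replicate 1 of WT with empty vector (0.128) or EWS-FLI1 (0.0862), and with upper-quartile scaling (0.118). A share of 3.67% of its exonic bases also belongs to another annotated gene. ANXA4, abundant in epithelia, stood between 18.2 and 25.4 CPM. ANXA11, which links RNA granules to lysosomes, stood between 127.2 and 147.2 CPM, and S100A11, the partner of ANXA1, between 33.6 and 40.6 CPM. These last 3 genes were called in no comparison, and their largest log2 differences between states within a vector were 0.19 for ANXA4, -0.14 for ANXA11 and -0.19 for S100A11.

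Over both vectors, 6 of the 10 genes differed between WT and no ARID1A, 4 between ΔIDR1b and no ARID1A and 4 between ΔIDR1b and WT, where 29.7%, 49.8% and 38.6% (20.3% lower) of all genes were called. The 6 were ANXA1, ANXA3, ANXA6, ANXA7 and MYOF, higher with WT, and S100A10, lower. The 4 between ΔIDR1b and no ARID1A were ANXA1 and ANXA3, higher, and ANXA2 and S100A10, lower. The 3 comparisons share libraries with each other. Within the first comparison ANXA6 (0.19, adjusted p = 0.0359) was lost without replicate 1 (0.0681) or 2 (0.138) of no ARID1A with empty vector, replicate 1 (0.115) or 2 (0.0944) of no ARID1A with EWS-FLI1, replicate 1 of WT with empty vector (0.166) or with upper-quartile scaling (0.161). MYOF (0.45, adjusted p = 0.0367) was lost without replicate 2 of no ARID1A with empty vector (0.125) or EWS-FLI1 (0.178), replicate 1 (0.0675) or 2 (0.0752) of WT with empty vector, replicate 2 of WT with EWS-FLI1 (0.0924), with upper-quartile scaling (0.0724) and in DESeq2 (0.0639). In the comparison of ΔIDR1b with no ARID1A, ANXA2 (-0.24, adjusted p = 0.00604) was lost without replicate 1 of ΔIDR1b with EWS-FLI1 (0.0585).

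Per kilobase of exonic length, the 2 S100 genes were the most abundant of the 10, at 102.4 CPM per kb for S100A10 and 58.3 for S100A11 as means over the 12 libraries. ANXA6 followed at 29.5, ANXA7 at 28, ANXA11 at 16.3, ANXA2 at 13.8 and ANXA1 at 9.42 CPM per kb. ANXA4, ANXA3 and MYOF were lowest, at 1.91, 1.15 and 1.11 CPM per kb. The length is the union of annotated exons, which is longer than the main transcript for genes with many isoforms, such as ANXA2.

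Of the other annexins and ferlins, few were measurable. ANXA5, a widely expressed annexin that forms arrays at membrane wounds, fell in ΔIDR1b against WT like the 4 genes above, by -0.43 with empty vector (adjusted p = 0.002) and -0.37 with EWS-FLI1 (adjusted p = 0.00943). It stood at 255 ± 2.64 CPM in WT and 189.9 ± 6.09 CPM in ΔIDR1b with empty vector (SD, n = 2). ANXA9 was the other annexin of that list of 6 to be tested and was called in no comparison. ANXA8, ANXA8L1, ANXA10 and ANXA13 had at most 4 counts in a library. DYSF (dysferlin), the nearest relative of MYOF, stood between 4.48 and 9.27 CPM and was called in no comparison. FER1L5, the other of the 4 listed ferlins to be tested, was higher in ΔIDR1b than in no ARID1A with empty vector (log2 3.37, SE 0.866, adjusted p = 0.00276), at 22 and 34 counts per library against 3 and 2. With EWS-FLI1 the difference was 0.66 and was not called. Over both vectors FER1L5 was called higher in ΔIDR1b than in no ARID1A (log2 2.02, adjusted p = 0.00396) and than in WT (log2 1.47, adjusted p = 0.0277).

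Of 16 other S100 genes listed, 6 were tested. S100A13, which takes part in the release of proteins without a signal peptide, ran in the same order as S100A10. It stood at 27.8 ± 0.568 CPM in no ARID1A, 18.6 ± 1.95 CPM in WT and 12.3 ± 2.8 CPM in ΔIDR1b with empty vector (SD, n = 2). Its log2 difference from no ARID1A was -0.58 in WT (adjusted p = 0.0189) and -1.18 in ΔIDR1b (adjusted p = 1.86e-06) with empty vector, and -0.87 (adjusted p = 0.000303) and -1.35 (adjusted p = 1.33e-07) with EWS-FLI1. S100A1 also fell against no ARID1A, by -2.06 in WT (adjusted p = 0.00944) and -2.10 in ΔIDR1b (adjusted p = 0.00238) with empty vector, from 39 and 45 counts per library to 4 to 16. S100A16 was higher in ΔIDR1b than in no ARID1A with empty vector (log2 1.84, adjusted p = 0.021), at 5 to 23 counts per library. Against no ARID1A, 0 of the 6 were called higher and 2 lower for WT with either vector, where 11.7% (empty vector) and 18.1% (EWS-FLI1) of all genes were called. For ΔIDR1b 2 were higher and 2 lower with empty vector, and 1 higher and 2 lower with EWS-FLI1, where 33.3% and 35.9% of all genes were called.

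Partners of the repair response outside these families were listed as caveolae and repair partners (20 genes, 17 tested) and as ESCRT components, which pinch off damaged membrane (17 genes, 17 tested). Of the first list, ΔIDR1b against no ARID1A had 5 genes higher and 1 lower with empty vector and 7 higher and 1 lower with EWS-FLI1, where 33.3% and 35.9% of all genes were called. The medians of the list were 0.25 and 0.29 on the log2 scale, beside 0.0040 and 0.02 over all genes. Against WT it had 2 higher and 2 lower with empty vector and 2 higher and 0 lower with EWS-FLI1, where 24.5% and 18.6% of all genes were called. AHNAK, the giant scaffold protein held at the membrane by the complex of S100A10 and ANXA2, rose in ΔIDR1b against WT by 0.60 with empty vector (adjusted p = 7.44e-05) and 0.45 with EWS-FLI1 (adjusted p = 0.00268), in the comparison where S100A10 and ANXA2 fell. EHD2, an ATPase of the caveolar neck, rose against no ARID1A by 0.76 (adjusted p = 0.00154) and 0.91 (adjusted p = 0.000323). SYT7, a calcium sensor of lysosome exocytosis, rose by 1.06 (adjusted p = 0.000447) and 0.84 (adjusted p = 0.0041) in the same comparisons. SYT7 also rose in WT against no ARID1A with empty vector (0.70, adjusted p = 0.0452) and was not called there with EWS-FLI1. In that comparison the list had 2 higher and 0 lower with empty vector and 2 higher and 1 lower with EWS-FLI1. The shares of all genes called there were 11.7% and 18.1%. The 2 genes lower in ΔIDR1b than in WT with empty vector were CAV2 (-0.47, adjusted p = 0.0197) and CAPNS1 (-0.42, adjusted p = 0.00512). Of the ESCRT list, ΔIDR1b against no ARID1A had 4 higher and 5 lower with empty vector and 3 higher and 5 lower with EWS-FLI1 (33.3% and 35.9% of all genes called). Against WT it had 1 higher and 5 lower and 1 higher and 4 lower (24.5% and 18.6% of all genes called). IST1, an ESCRT-III component, fell against WT by -0.55 (adjusted p = 6.94e-05) and -0.58 (adjusted p = 5.84e-05), and VPS4B, an ATPase that takes ESCRT-III apart, rose against no ARID1A by 0.54 (adjusted p = 0.01) and 0.70 (adjusted p = 0.000988). CHMP2B fell in ΔIDR1b against no ARID1A by -1.05 (adjusted p = 3.31e-07) with empty vector and -1.02 (adjusted p = 4.77e-07) with EWS-FLI1. Against WT it fell by -0.63 (adjusted p = 0.000936) and -0.53 (adjusted p = 0.00685). WT against no ARID1A also had CHMP2B lower, by -0.41 (adjusted p = 0.0395) and -0.49 (adjusted p = 0.00987). CHMP6 was higher in ΔIDR1b than in WT with empty vector (1.02, adjusted p = 0.00132) and not called with EWS-FLI1.

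For the 3 genes of the 10 whose highest group mean was at least 2 times the lowest, the genes with the most similar profile were sought among 12002 genes with a mean of at least 5 CPM. The measure was the root-mean-square difference of centred log2 CPM over the 12 libraries, whose median over candidates was about 0.495 for ANXA1. Nearest to ANXA1 were ZNF697 (0.136), TIMP3 (0.154) and RIPK2 (0.159). Nearest to ANXA3 were PUS3 (0.174), PAG1 (0.178) and LBH (0.183). Nearest to MYOF were CLU (0.254), ZNF341 (0.259) and HSPH1 (0.273), at larger distances than for ANXA1 and ANXA3. In these bulk libraries a lower level can mean fewer cells with the transcript or less of it per cell, and these cannot be told apart.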

How the data were processed

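The 12 deposited tables hold counts of fragments per gene. Per the file headers, featureCounts 2.0.1 was run by the authors on exons of GENCODE release 41 (GRCh38, patch 13), without a strand option and without fragments that map to several places or overlap several genes. The submitters' processing notes also name STAR, SAMtools and edgeR, whose versions are not given in the sources used here. No normalization had been applied to the deposited counts.

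The genes, the lists and the rule for naming genes were chosen with earlier results of these data known. Genes were kept by filterByExpr (minimum count 10, minimum total 15), which left 20377 genes holding at least 99.79% of each library's counts. All 12 libraries entered a quasi-likelihood model of the 6 group means in edgeR 4.0.16 (R 4.3.3) after TMM scaling, and 13 contrasts were tested 2-sided, each adjusted over all genes. The common biological variation was 10.1%. Another 3 contrasts, the differences between states averaged over both vectors, were added after the data had been seen. Alternatives were RLE and upper-quartile scaling, no filter, DESeq2 1.42.0, only the libraries compared, replicate blocks and leaving out each library. The procedure was tested on simulated data.

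Named genes were the 10 members, and from each further list up to 3 called genes per contrast and direction with the largest change and a mean of at least 1 CPM. A further marker of other cell types is not reported here. The labels number the repeats 1 and 2. Over 10695 genes, the difference between repeats correlated between groups of the same vector (r from 0.104 to 0.194 with empty vector, 0.153 to 0.412 with EWS-FLI1). Between groups of different vectors r was negative (-0.223 to -0.00785), in part as large in size as within empty vector. The values thus lean toward like repeat numbers within each vector and unlike numbers between vectors. Correlations of this size do not settle whether repeats were paired, the labels do not say so, and their cause was not tested. Replicates of a group differed by more than counting error (chi-square per degree of freedom 3.02 to 12.1), so none was counted as a repeat deposit. The largest spread, 12.1, was that of WT with EWS-FLI1, and the next was 6.13 in ΔIDR1b with EWS-FLI1. Motif counts read RefSeq start-site windows on GRCh38.p14, and gene positions come from the deposited tables.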

Additional observations from a re-analysis of the deposited data

How the results depend on the processing

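Of 20 calls among the 60 state comparisons of the 10 genes within a vector, 6 held in all alternatives run (ANXA1 in the 4 comparisons with no ARID1A, S100A10 in ΔIDR1b against no ARID1A with either vector). The other 14 were lost without at least 1 single library, 7 of them also in another alternative, and 0 changed sign. Of the 14 calls over both vectors, 10 held in all. Of 106 values not called, leaving out those of MYOF for EWS-FLI1, 4 were called in some alternative and 53, none larger than 0.21 in size, changed sign. Upper-quartile scaling left 5 of the 10 genes higher in WT than in no ARID1A with EWS-FLI1 (8 with TMM) and moved the median of all genes by at most 0.06.

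With the replicate block within each vector, the genes called for EWS-FLI1 came to 15 without ARID1A (9 without the block), 260 with WT (45), 177 with ΔIDR1b (35) and 532 averaged (95). For WT against no ARID1A with empty vector they came to 3606 (2381), and for the interactions to 16 (WT and no ARID1A) and 10 (ΔIDR1b and WT). Among the 10 genes, it changed the call of ANXA6 alone (WT against no ARID1A with EWS-FLI1). A block crossed between vectors, added after the data were seen, gave 80 genes for EWS-FLI1 in WT, 63 in ΔIDR1b and 159 averaged. Without a filter the counts for EWS-FLI1 were 16 without ARID1A and 75 with WT, and 6 for the interaction of ΔIDR1b and WT. Only the libraries compared gave 16, 26 and 56 for EWS-FLI1 without ARID1A, with WT and with ΔIDR1b, 2202 for WT against no ARID1A and 1622 for ΔIDR1b against WT, both with EWS-FLI1, the latter with 0 of the 10 genes. Of the 10, WT against no ARID1A held 1 with empty vector under upper-quartile scaling and under DESeq2, and 3 over both vectors under upper-quartile scaling. The cause of these shifts was not tested.

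Leaving out single libraries, the genes called for EWS-FLI1 ranged from 5 to 15 without ARID1A, 24 to 230 with WT, 23 to 74 with ΔIDR1b and 65 to 316 averaged. Of the 9 genes other than MYOF, 0 to 1 were called with WT. WT against no ARID1A gave 802 to 3550 genes and 1 to 2 of the 10 with empty vector, 1828 to 3795 genes with EWS-FLI1 and 3 to 6 of the 10 over both. ΔIDR1b against no ARID1A gave 4484 to 7781 genes with empty vector and 2 to 4 of the 10 with EWS-FLI1. ΔIDR1b against WT gave 2754 to 6138 genes and 1 to 4 of the 10 with empty vector, and 1886 to 4383 genes and 0 to 4 of the 10 with EWS-FLI1. The interactions gave 5 to 48 (WT and no ARID1A) and 0 to 26 genes (ΔIDR1b and WT). The value of ANXA3 for EWS-FLI1 without ARID1A ranged from -0.41 to 0.21, and that of S100A10 in WT from -0.45 to 0.0045. MYOF ranged from -0.35 to 0.12 for ΔIDR1b against WT with empty vector, -0.41 to 0.11 with EWS-FLI1 and -0.25 to 0.0079 over both, from -0.028 to 0.41 for WT and -0.23 to 0.29 for ΔIDR1b against no ARID1A with EWS-FLI1, and from -0.31 to 0.22 for the interaction of ΔIDR1b and WT. With 33 to 121 counts of ANXA3 and 66 to 210 of MYOF a library, and 2 libraries a group, small differences in these genes were not detectable.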
